A study of Homo sapiens with 12 samples.

Results

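The liver makes most of the proteins that clot blood, and 10 genes for such proteins were followed in HUH6 cells, a human hepatoblastoma (embryonal liver tumour) cell line, after depletion of the transcription factor GATA4. The members were set by name: the zymogens F2, F7, F10 and F12, the cofactor F5, the 3 fibrinogen chains FGA, FGB and FGG, the fibrinolytic zymogen PLG and the inhibitor SERPINC1. All 19 probes annotated to them on an expression beadchip were read, and 15 probes of 9 members passed the filter on dim probes, among 10196 named genes tested. The control group was HUH6 cells given a non-targeting (NT) siRNA, and the other group HUH6 cells given a pool of siRNAs against GATA4. Both received 0.1 uM siRNA for 6 h, RNA was taken at 72 h, and each group had 6 arrays numbered as replicates 1 to 6. Both groups share 1 cell line and no untransfected cells were analysed here. Whether the replicates were grown apart is not stated in the labels, so the p-values cover the spread among these 12 samples, which may be technical.

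Coagulation ends when activated factor X, held by its cofactor factor V on a membrane, cuts prothrombin to thrombin, and thrombin cuts fibrinogen into fibrin. Factor VII starts this cascade together with tissue factor, while factor XII starts the contact pathway on negatively charged surfaces. Antithrombin, the product of SERPINC1, inactivates thrombin and activated factor X, and plasmin, made from plasminogen, dissolves fibrin. Prothrombin and factors VII and X carry glutamates that a vitamin K-dependent enzyme carboxylates before secretion. Fibrinogen is a dimer of 3 different chains, which hepatocytes assemble from the products of FGA, FGB and FGG. These 3 genes lie next to each other on chromosome 4, with no other protein-coding gene between them, and F7 and F10 are neighbours on chromosome 13.

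GATA factors bind DNA at a GATA core, so the bases just before the transcription start are shown for the 3 fibrinogen chains and for F2 and F12, the members on which the comparison of siRNAs turns. The sequences are from RefSeq (GRCh38.p14), run 5′ to 3′ along the gene's strand, and end at the base before the start. Capitals mark a GATA word on either strand, which was the only motif searched: AGATAA and the variant AGATAG, together with TGATAA and the variant TGATAG.
F2, chr11:46718963-46719212, plus strand: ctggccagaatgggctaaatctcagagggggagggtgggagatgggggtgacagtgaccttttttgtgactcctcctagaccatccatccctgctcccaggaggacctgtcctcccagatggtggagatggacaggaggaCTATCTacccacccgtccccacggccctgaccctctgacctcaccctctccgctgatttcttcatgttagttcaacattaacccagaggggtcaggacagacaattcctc
F12, chr5:177409565-177409814, minus strand: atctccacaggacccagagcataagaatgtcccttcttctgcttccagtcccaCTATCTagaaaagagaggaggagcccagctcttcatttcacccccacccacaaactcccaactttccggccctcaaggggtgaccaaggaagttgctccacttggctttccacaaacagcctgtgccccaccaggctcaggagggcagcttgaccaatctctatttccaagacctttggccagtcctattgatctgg
FGB, chr4:154562730-154562979, plus strand: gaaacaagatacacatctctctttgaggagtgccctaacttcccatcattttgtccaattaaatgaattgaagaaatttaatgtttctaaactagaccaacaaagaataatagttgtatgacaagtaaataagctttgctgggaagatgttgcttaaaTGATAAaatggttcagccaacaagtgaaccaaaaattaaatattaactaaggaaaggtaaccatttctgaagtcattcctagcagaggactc
FGA, chr4:154590743-154590992, minus strand: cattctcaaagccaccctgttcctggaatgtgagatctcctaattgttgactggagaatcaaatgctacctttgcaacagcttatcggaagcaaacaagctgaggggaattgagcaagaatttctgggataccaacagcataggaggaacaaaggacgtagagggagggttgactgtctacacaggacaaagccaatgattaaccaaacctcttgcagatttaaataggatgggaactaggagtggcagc
FGG, chr4:154612657-154612906, minus strand: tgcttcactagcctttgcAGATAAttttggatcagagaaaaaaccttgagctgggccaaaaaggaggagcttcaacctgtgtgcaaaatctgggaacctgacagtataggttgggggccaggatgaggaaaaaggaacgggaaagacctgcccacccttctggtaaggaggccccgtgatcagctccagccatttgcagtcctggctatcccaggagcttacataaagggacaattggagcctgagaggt
The GATA word lay 110 to 105 bases before the start of F2 and 197 to 192 bases before that of F12, on the opposite strand in both. It lay 92 to 87 bases before the start of FGB and 232 to 227 bases before that of FGG, on the gene's own strand, and was not found in the window of FGA. Of the 9 members whose promoters were in the table used, 6 held the word within 250 bases before a start (F2, F10, F12, FGB, FGG and PLG) and 3 did not (F5, F7 and FGA). SERPINC1 was not among them. Of 34943 RefSeq windows of this length, 22.4% held it.

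GATA4 itself was detected on 6 of 6 NT siRNA arrays and on 0 of 6 GATA4 siRNA arrays, with raw signals of 137.1 to 168.8 and 108.3 to 119.3. Its mean after NT siRNA was at least 1.19-fold higher than the detection level of the GATA4 siRNA arrays. For that bound each GATA4 siRNA array entered with its lowest detected signal or with the signal of the GATA4 probe, whichever was higher. The GATA4 siRNA array had the higher median raw signal in 6 of 6 pairs (120.8 to 128.1, against 117.4 to 121.2 after NT siRNA), and the part of this in the member results was not tested. Per array 16067 to 16804 of 48106 probes were detected, and the number of arrays limits the precision. Replicates 1 to 3 and replicates 4 to 6 stood apart in both groups. The labels give no chip, date or batch for these sets, which were recognised from the arrays in an earlier look at the same data and are not groups of the study. The replicate number was therefore kept as a block in the comparison of siRNAs, and the sets were compared in a fit of their own. Of 8 hepatoblastoma and hepatocyte markers with a named probe, 7 were detected on all 12 arrays, AFP, ALB and GPC3 included, and DLK1 was detected on none.

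After GATA4 siRNA the prothrombin and fibrinogen gamma chain transcripts were lower and the factor XII transcript was higher, while the other tested members did not pass the test. Of the 9 tested members 3 were called (limma with the replicate block, Benjamini-Hochberg adjusted p under 0.05 over all genes), against 6.41% of all genes tested. The called members were 1 higher (F12) and 2 lower (F2 and FGG), where 2.65% of all genes were called higher and 3.77% lower. The median log2 change was 0.03 over the 9 members and 0.002 over all genes. Without the replicate block limma called none of the 9, against 0.706% of all genes, and 3 had an unadjusted p under 0.05, against 9.55% of all genes. With the set in place of the replicate number as the block 4 were called (F2, F10, F12 and FGG), against 7.69% of all genes.

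**Figure D1:**
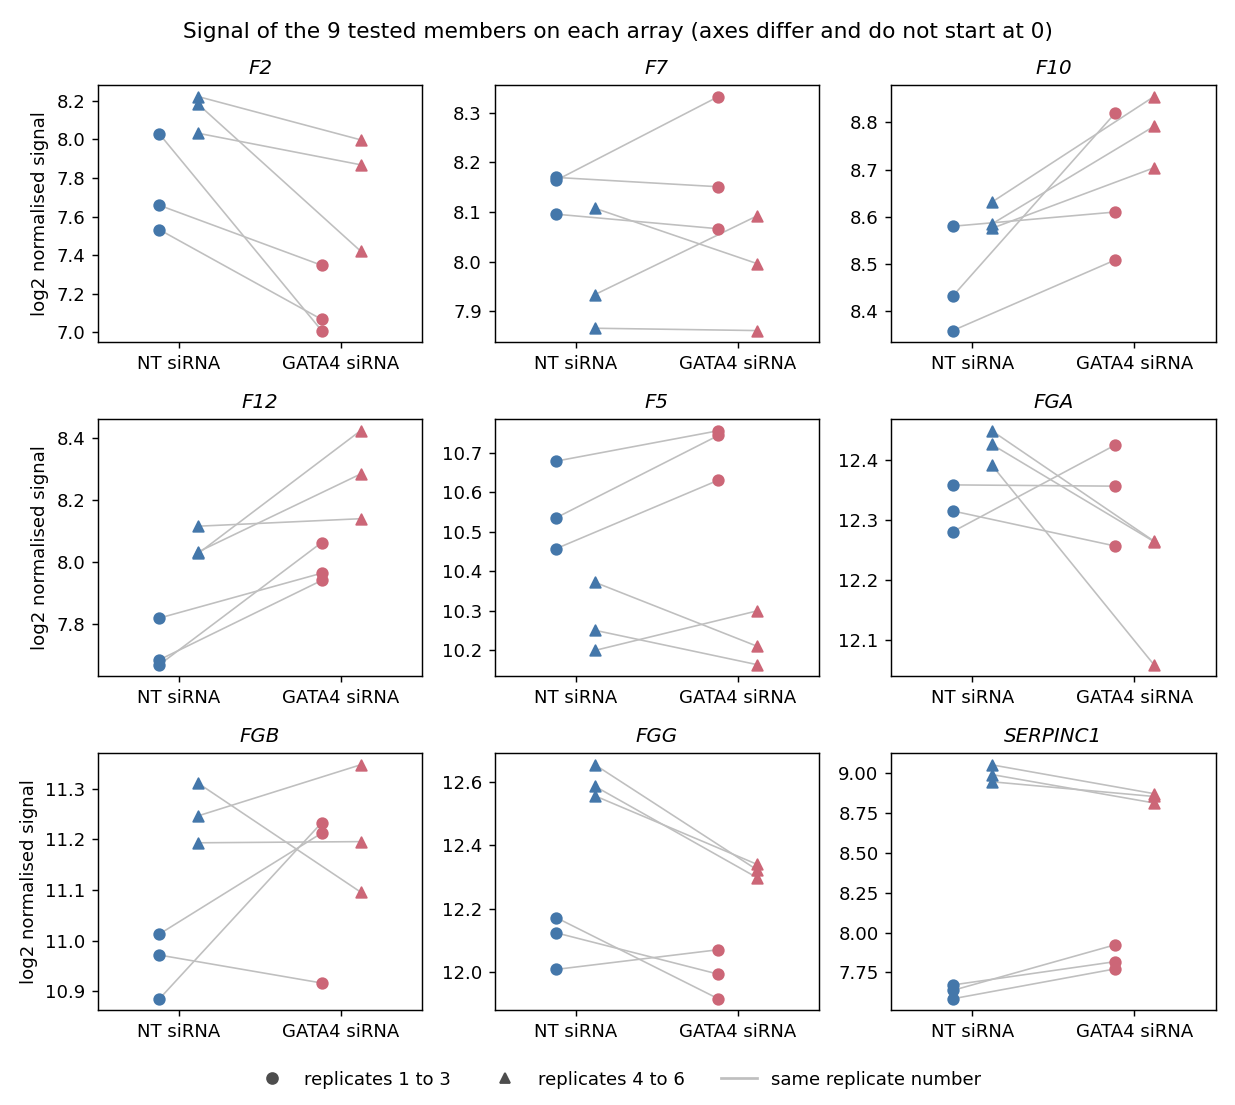
The log2 normalised signal of the 9 tested members is plotted for each array, in blue for NT siRNA and red for GATA4 siRNA, with circles for replicates 1 to 3, triangles for replicates 4 to 6 and a grey line between arrays of the same replicate number. All 6 lines fall for F2 and all 6 rise for F12 and F10, and SERPINC1 sits at 7.59 to 7.92 in replicates 1 to 3 and at 8.81 to 9.05 in replicates 4 to 6.

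Prothrombin, encoded by F2, is the zymogen of thrombin and is carboxylated with vitamin K before secretion. In replicates 1, 2 and 3 the log2 signal of its single probe was 7.66, 8.03 and 7.53 after NT siRNA and 7.35, 7.01 and 7.07 after GATA4 siRNA. In replicates 4, 5 and 6 it was 8.03, 8.18 and 8.22 after NT siRNA and 7.87, 7.42 and 8.00 after GATA4 siRNA. The siRNA groups did not overlap within either set, and every GATA4 siRNA array was below the NT siRNA array of its number, by 0.16 in replicate 4 up to 1.02 in replicate 2. The group means were 7.94 ± 0.28 (SD, n = 6) and 7.45 ± 0.41 (SD, n = 6). F2 fell by 0.49 on the log2 scale (SE 0.092, limma adjusted p = 0.0018), which is 1.40-fold lower with a 95% interval of 1.23 to 1.60. It was called in replicates 1 to 3 alone (-0.60, limma adjusted p = 0.032, where 1.19% of all genes were called) and in replicates 4 to 6 alone (-0.38, adjusted p = 0.042, 5.13% of all genes). Before normalisation the raw signal was lower in 5 of 6 pairs, and in replicate 6 it read 378.8 after NT siRNA and 400.3 after GATA4 siRNA. The call held in each of the 12 fits that left out an array, although leaving out either array of a pair leaves the same remaining pairs. It was lost without the replicate block (adjusted p = 0.337) and without a mean-variance trend (adjusted p = 0.0503).

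Neither of the other vitamin K-dependent zymogens was called. Factor X, encoded by F10, is cut to the protease that activates prothrombin. Its probe read 8.36 to 8.63 (median 8.58) after NT siRNA and 8.51 to 8.85 (median 8.75) after GATA4 siRNA. It was above its partner in 6 of 6 pairs, by 0.03 in replicate 1 up to 0.39 in replicate 2, although the groups overlapped. The change of 0.19 (SE 0.059) did not pass the test over all genes (limma adjusted p = 0.062). It passed narrowly with the set as the block (adjusted p = 0.04997) and without either array of replicate 1 (adjusted p = 0.0499). Factor VII, encoded by F7, binds tissue factor to start clotting. Its brighter probe read 7.87 to 8.17 (median 8.10) after NT siRNA and 7.86 to 8.33 (median 8.08) after GATA4 siRNA. Of the 6 pairs 4 were lower and 2 higher, while on raw signal 1 was lower and 5 higher, and the change was 0.03 (95% interval -0.11 to 0.16, limma adjusted p = 0.866). A dimmer F7 probe gave 0.04 and the third F7 probe was detected on no array.

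Factor XII, encoded by F12, is the zymogen that starts the contact pathway and takes no part in the vitamin K cycle. In replicates 1, 2 and 3 its probe read 7.82, 7.67 and 7.68 after NT siRNA and 7.96, 8.06 and 7.94 after GATA4 siRNA. In replicates 4, 5 and 6 it read 8.12, 8.03 and 8.03 after NT siRNA and 8.14, 8.42 and 8.28 after GATA4 siRNA. The siRNA groups overlapped over all 12 arrays but not within either set, and 6 of 6 pairs were higher, by 0.02 in replicate 4 up to 0.40 in replicate 5. On raw signal 5 of 6 pairs were higher. F12 rose by 0.24 (SE 0.067, limma adjusted p = 0.029), or 1.18-fold with a 95% interval of 1.08 to 1.30. The call was lost when either array of replicate 2, 3, 5 or 6 was left out (adjusted p up to 0.115). Without the replicate block the adjusted p was 0.464. F12 was not called with equal medians in place of quantile normalisation (limma adjusted p = 0.089) or with no filter on dim probes (0.077). Without a mean-variance trend it was not called either. F12 was also not called within replicates 1 to 3 (0.26, adjusted p = 0.235) or within replicates 4 to 6 (0.22, adjusted p = 0.171).

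F2 and F12 were the 2 of 9 members whose siRNA groups separated in the same direction within both sets, which 5.58% of all genes did. Factor V, encoded by F5, is the cofactor that holds activated factor X on the membrane. Its probe read 10.20 to 10.68 (median 10.41) after NT siRNA and 10.16 to 10.76 (median 10.47) after GATA4 siRNA, with 4 of 6 pairs higher and the groups overlapping. The change was 0.05 (95% interval -0.06 to 0.16, limma adjusted p = 0.644).

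**Figure D2:**
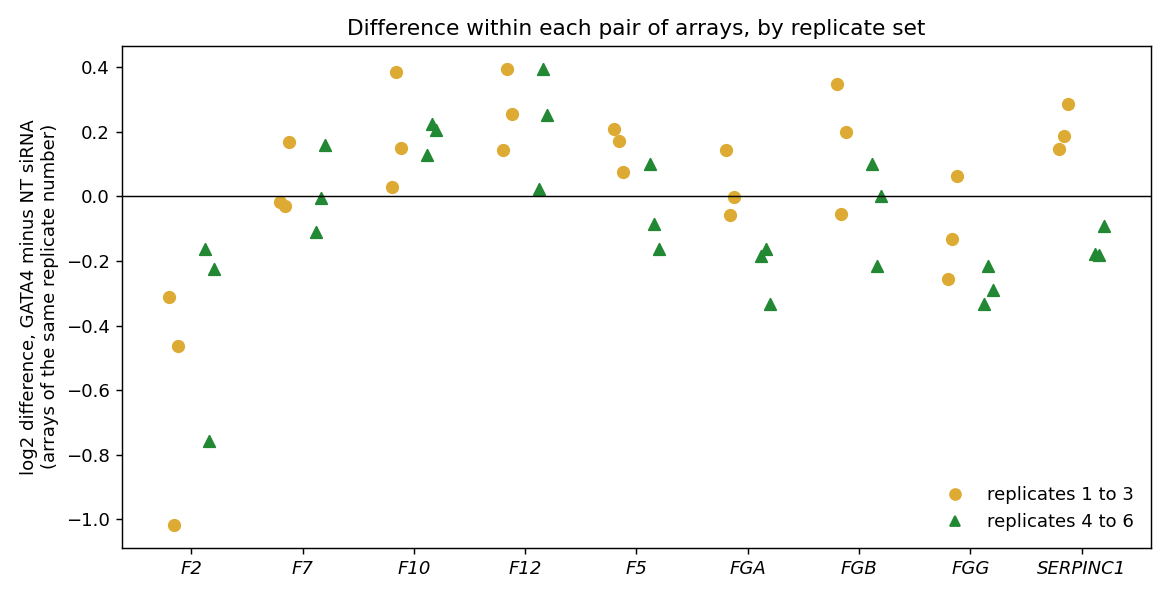
For each tested member the log2 difference of GATA4 siRNA minus NT siRNA is plotted for each replicate number, with circles for replicates 1 to 3 and triangles for replicates 4 to 6. The 6 differences of F2 run from -1.02 to -0.16, those of F12 are all above 0, and those of SERPINC1 lie above 0 in replicates 1 to 3 and below 0 in replicates 4 to 6.

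Of the 3 fibrinogen chain genes, whose products are assembled into 1 protein, the gamma chain gene FGG was called lower after GATA4 siRNA and FGA and FGB were not called. The brighter FGG probe read 12.17, 12.12 and 12.01 in NT siRNA replicates 1, 2 and 3 and 11.91, 11.99 and 12.07 in the GATA4 siRNA replicates of those numbers. In replicates 4, 5 and 6 it read 12.65, 12.56 and 12.59 after NT siRNA and 12.32, 12.34 and 12.30 after GATA4 siRNA. The groups overlapped in replicates 1 to 3 and did not overlap in replicates 4 to 6, and 5 of 6 pairs were lower, replicate 3 being the exception at 0.06. FGG fell by 0.19 (SE 0.048, limma adjusted p = 0.015), or 1.14-fold, 95% interval 1.07 to 1.23. It was called within replicates 4 to 6 (-0.28, adjusted p = 0.0047) and not within replicates 1 to 3 (-0.11, adjusted p = 0.528). A dimmer FGG probe annotated to another transcript variant also changed by -0.19, without passing the test over the 16339 tested probes (adjusted p = 0.081). Leaving out either array of replicate 4 or 6 ended the FGG call (adjusted p up to 0.078), as did leaving out the replicate block (adjusted p = 0.694). FGG was not called with equal medians in place of quantile normalisation (limma adjusted p = 0.081) or with no filter on dim probes (0.062). Without a mean-variance trend it was not called either.

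The alpha chain gene FGA gave different answers at different probes. Its brightest probe, which stood for the gene, read 12.28 to 12.45 (median 12.38) after NT siRNA and 12.06 to 12.42 (median 12.26) after GATA4 siRNA. The groups overlapped, 5 of 6 pairs were lower, and the change of -0.10 (SE 0.050) was not called (limma adjusted p = 0.277). Probe ILMN_1779017, the next brightest of FGA, was lower in 6 of 6 pairs (4 of 6 on raw signal) and fell by 0.20 (SE 0.049, limma adjusted p over probes = 0.017). The remaining tested FGA probes gave -0.07 and -0.06, neither called. Within replicates 4 to 6 the gene-level value was -0.23 (adjusted p = 0.023), with all 3 pairs lower, and within replicates 1 to 3 it was 0.03 (adjusted p = 0.911).

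The beta chain gene FGB was not lower at either probe. Its brighter probe read 10.89 to 11.31 (median 11.10) after NT siRNA and 10.92 to 11.35 (median 11.20) after GATA4 siRNA. The groups overlapped, 4 of 6 pairs were higher, and the change was 0.06 (95% interval -0.05 to 0.18, limma adjusted p = 0.590). The dimmer FGB probe, ILMN_2114972, was higher in 6 of 6 pairs and rose by 0.21 (SE 0.059, adjusted p over probes = 0.045). Over all 15 tested member probes 5 were called, 1 each for F2, F12, FGA, FGB and FGG, where 5.62% of the 16339 tested probes were. The difference of FGB minus FGG on the log2 scale, taken within each array at the brighter probes, was larger after GATA4 siRNA in 6 of 6 pairs. The increase ran from 0.0026 to 0.60, with a mean of 0.26 ± 0.23 (SD, n = 6). The difference of FGA minus FGG was larger in 4 of 6 pairs (mean 0.09 ± 0.17), and that of FGB minus FGA in 5 of 6 (mean 0.16 ± 0.15). No test was made of these within-array differences.

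**Figure D3:**
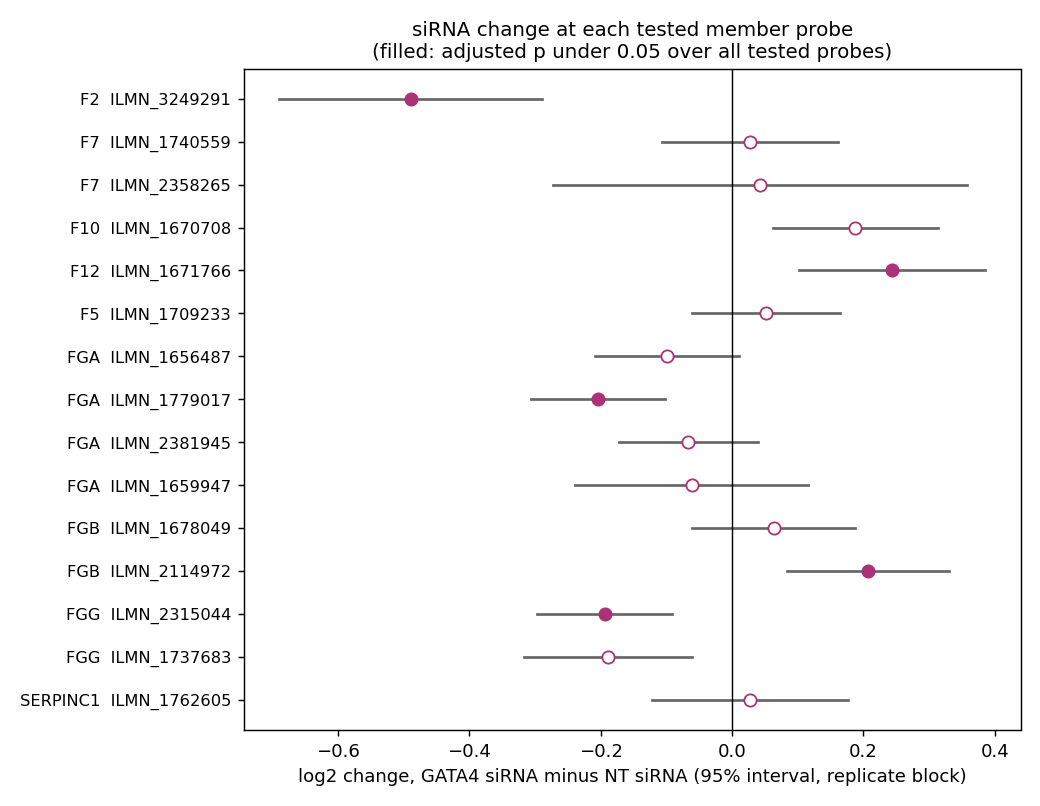
The log2 change of GATA4 siRNA minus NT siRNA is plotted for each of the 15 tested member probes, with bars for the 95% interval of the fit with the replicate block and filled points for an adjusted p under 0.05 over all tested probes. The F2 probe lies farthest from 0 at -0.49, both FGG probes lie at -0.19, and the FGB probes lie at 0.06 and 0.21.

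Antithrombin, encoded by SERPINC1, is the main plasma inhibitor of thrombin and activated factor X. In replicates 1, 2 and 3 its probe read 7.67, 7.59 and 7.64 after NT siRNA and 7.82, 7.77 and 7.92 after GATA4 siRNA. In replicates 4, 5 and 6 it read 8.99, 9.05 and 8.94 after NT siRNA and 8.81, 8.87 and 8.85 after GATA4 siRNA. The siRNA groups did not overlap within either set but separated in opposite directions, higher in 3 of 3 pairs in one and lower in 3 of 3 in the other, which 0.716% of all genes did. On raw signal 2 of 6 pairs were lower and 4 higher, and replicate 6 read 559.7 after NT siRNA and 638.7 after GATA4 siRNA. Over both sets the change was 0.03 (95% interval -0.12 to 0.17, limma adjusted p = 0.875). The siRNA change in replicates 4 to 6 minus that in replicates 1 to 3 was -0.36 (SE 0.11, limma unadjusted p = 0.0054, adjusted p = 0.443). The test of that difference called none of the 9 members and 0% of all genes by limma. At an unadjusted p under 0.05 it held 3 members, SERPINC1, FGA (-0.25) and F5 (-0.20), and 8.16% of all genes.

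Plasminogen was not measured above background. The single PLG probe read 98.4 to 120.7 raw units over the 12 arrays, with detection p-values of 0.235 to 0.952, so no change is given for it.

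The members were also compared between the replicate sets. These sets were recognised from the same arrays, so p-values between them, here and for the marker and pathway lists below, are descriptive only. Those p-values do not test whether the sets differ. Of the 9 tested members 7 were called (limma with siRNA as a term, adjusted p under 0.05), against 51.1% of all genes. The called members were 5 higher in replicates 4 to 6 (F2, F12, FGB, FGG and SERPINC1), where 25.9% of all genes were called higher, and 2 lower (F5 and F7), where 25.2% were. The median difference was 0.19 over the members and 0.01 over all genes. The sets did not overlap for 3 members, F5, FGG and SERPINC1, and did not overlap for 25.7% of all genes. SERPINC1 was 1.18 higher on the log2 scale in replicates 4 to 6 (SE 0.064, limma adjusted p = 3.15e-14), which is 2.27-fold. FGG was 0.41 higher (11.91 to 12.17 against 12.30 to 12.65, adjusted p = 1.28e-08), and both siRNA groups showed the step. F2 was 0.51 higher (adjusted p = 5.88e-05) and F12 0.31 higher (adjusted p = 0.00013), beside siRNA changes of -0.49 and 0.24. FGB was 0.19 higher (adjusted p = 0.0056) and was not called among the GATA4 siRNA arrays alone (0.09, adjusted p = 0.413). F5 went the other way, reading 10.46 to 10.76 in replicates 1 to 3 and 10.16 to 10.37 in replicates 4 to 6 (-0.38, adjusted p = 6.91e-07). F7 was 0.19 lower (adjusted p = 0.017), a call lost when GATA4 siRNA replicate 3 or 5 was left out (adjusted p = 0.051 and 0.052), when its probes were averaged (-0.06, adjusted p = 0.566), and within either siRNA group (adjusted p = 0.111 among NT siRNA arrays and 0.119 among GATA4 siRNA arrays). F10 (0.14, adjusted p = 0.052) and FGA (-0.02, adjusted p = 0.724) did not pass the test, and F10 passed it when NT siRNA replicate 1 or GATA4 siRNA replicate 2 or 4 was left out (adjusted p = 0.013 at the lowest).

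Markers of several cell types differed between the sets, where 25.9% of all genes were called higher and 25.2% lower in replicates 4 to 6. All 4 tested macrophage and leukocyte markers (CD14, CD68, CD163 and CSF1R) were called lower in replicates 4 to 6, while PTPRC was detected on no array. The summed signal of all 5 macrophage and leukocyte markers, PTPRC included, was 1071 to 1087 in NT siRNA replicates 1 to 3. In NT siRNA replicates 4 to 6 it was 560 to 624. After GATA4 siRNA it was 1186 to 1251 and 620 to 696. All 4 tested stellate cell and fibroblast markers were also called lower in replicates 4 to 6. The sums over all 8 listed markers, undetected ones included, were 10840 to 12850 in replicates 1 to 3. In replicates 4 to 6 they were 7257 to 8473. Of the 4 tested, COL1A2 (0.22, limma adjusted p = 0.019) and TAGLN (0.24, adjusted p = 0.0018) were called higher after GATA4 siRNA, where 2.65% of all genes were. COL3A1, DCN and LUM were detected on no array. The COL1A2 call was lost without either array of replicate 2, 3 or 4 (adjusted p up to 0.075). Of the other markers tested between the sets, 1 of 7 hepatocyte markers was called higher and 4 lower (TTR by -0.47), 1 of 4 cholangiocyte markers higher and 2 lower, and 1 of 2 platelet markers higher. The single endothelial marker tested, PECAM1, gave 0.01 (adjusted p = 0.869). Among hepatocyte markers ALB fell by 0.23 after GATA4 siRNA (adjusted p = 0.0058), the only one of 7 called, where 6.41% of all genes were. Without the replicate block COL1A2, TAGLN and ALB were not called (adjusted p = 0.845, 0.830 and 0.206). All samples came from 1 cell line, so the cell types name the marker lists and not cells shown to be present. In bulk RNA, fewer cells with a transcript and less of it per cell cannot be told apart. The part of these markers in the member results was not tested.

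The other genes of the pathway were taken from lists chosen with earlier results of these data known. Of 9 further clotting factors and cofactors only 2 passed the filter, and both were called after GATA4 siRNA, where 6.41% of all genes were. Tissue factor, encoded by F3 and the cell surface receptor of factor VII, rose by 0.42 (SE 0.077, limma adjusted p = 0.0014). Kininogen, encoded by KNG1 and the contact pathway partner of factor XII, fell by 0.18 (adjusted p = 0.031), a call lost without either array of replicate 2, 4, 5 or 6 (adjusted p up to 0.140). F8, F9, F11, F13A1, F13B, VWF and KLKB1 were detected on no array. Of 8 genes of the vitamin K cycle and of factor secretion 1 was called, beside that 6.41% of all genes. It was PCSK5, a proprotein convertase, which fell by 0.26 (SE 0.051, adjusted p = 0.0028). GGCX, the carboxylase that modifies prothrombin and factors VII and X, changed by -0.14 and was not called (adjusted p = 0.173). Without the replicate block the F3, KNG1 and PCSK5 calls were lost (adjusted p = 0.478, 0.630 and 0.383), as they were in replicates 1 to 3 alone (0.132, 0.570 and 0.153).

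Among 9 tested regulators of liver coagulation genes only FOXA2, a forkhead factor of liver development, was called, against 6.41% of all genes. FOXA2 fell by 0.15 (limma adjusted p = 0.037). That call was lost without either array of replicate 4, 5 or 6 (adjusted p up to 0.153) and without the replicate block (0.232). None of 11 tested genes in the natural anticoagulant list was called after GATA4 siRNA by limma. Of these, 2 had an unadjusted p under 0.05, a threshold that 20.3% of all genes passed. TFPI, the tissue factor pathway inhibitor, had the lowest p (-0.17, adjusted p = 0.066). TFPI was called lower with the set as the block (adjusted p = 0.032), in replicates 4 to 6 alone (adjusted p = 0.0499) and as a mean of its probes (-0.23, adjusted p = 0.016). None of 8 fibrinolysis genes was called, with 2 at an unadjusted p under 0.05, and SERPINE2, a protease inhibitor, had the lowest p (0.12, adjusted p = 0.191). None of 7 acute phase plasma proteins was called, with 2 at an unadjusted p under 0.05, and SERPINA3, antichymotrypsin, had the lowest p (0.22, adjusted p = 0.074). The median changes of these 3 lists were -0.01, 0.07 and 0.06. The single tested thrombin receptor, F2R, changed by -0.04 (adjusted p = 0.686).

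Of 11 tested genes in the natural anticoagulant list 2 were called higher between the sets and 5 lower. Of 8 fibrinolysis genes 5 were called higher and 3 lower. Over all genes 25.9% were called higher and 25.2% lower. Farthest from 0 in the natural anticoagulant list, named after their values were seen, were C4BPB (-1.85, limma adjusted p = 6.90e-20) and C4BPA (-1.27, adjusted p = 3.42e-13). Both are among the 5 lower genes. They encode the chains of C4b-binding protein, a complement regulator that binds protein S in plasma and is not itself an anticoagulant. F3 was 0.61 lower in replicates 4 to 6 (adjusted p = 1.30e-07) and KNG1 0.34 higher (adjusted p = 9.10e-07).

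**Figure D4:**
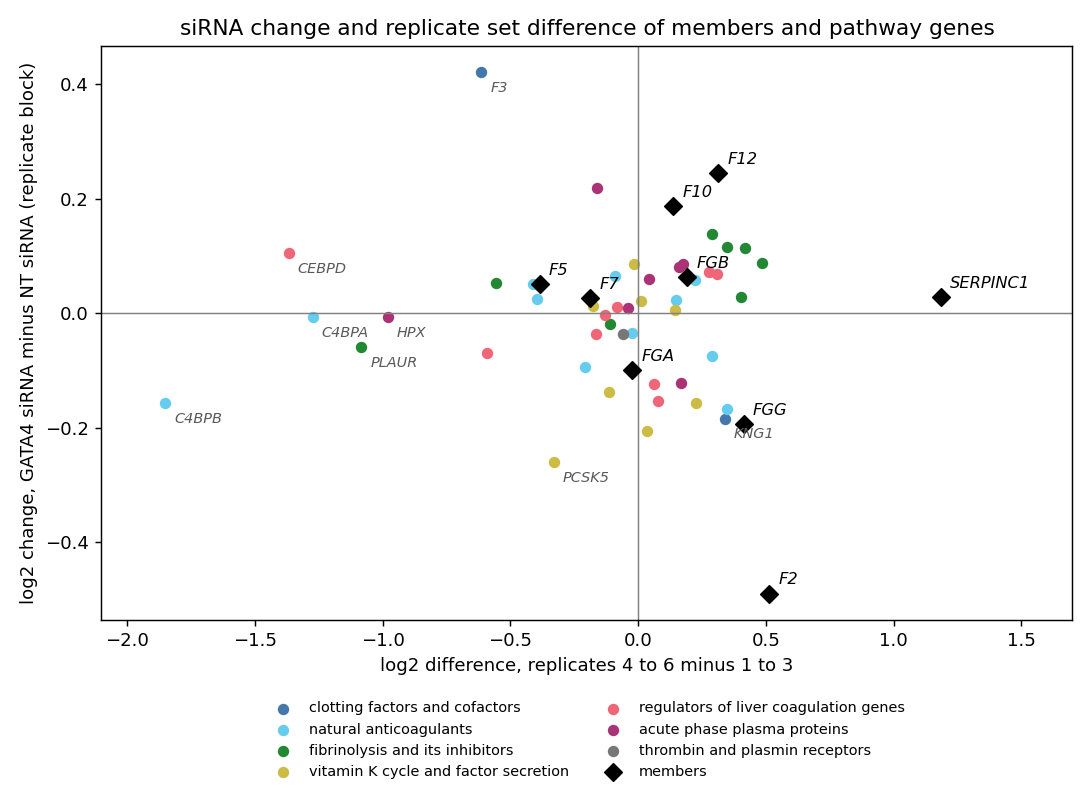
The log2 change after GATA4 siRNA (vertical axis) is plotted against the log2 difference of replicates 4 to 6 minus 1 to 3 (horizontal axis) for the 9 tested members, as black diamonds, and for the tested genes of the 7 pathway lists, as coloured circles. SERPINC1 lies at 1.18 on the horizontal axis and near 0 on the vertical one, F2 at 0.51 and -0.49, and C4BPB at -1.85 and -0.16.

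Across the 12 arrays the members varied together in ways that mixed set and siRNA, so the following values are descriptions of arrays that share sets and treatments. Of the 36 pairs of tested members none had a Pearson's r above 0.9. F10 and F12 had an r of 0.88 (n = 12 arrays), and 0.73 after the means of each siRNA in each set were taken out. FGG and SERPINC1 also had an r of 0.88, which was 0.28 after those means were taken out, and F5 and SERPINC1 had -0.85, which was then 0.08. The genes most like each member over the 12 arrays were picked by the highest r among all other tested genes. For F2 they were EIF1B (0.93), NFYA (0.91) and S1PR3 (0.91). For F12 they were TMEM203 (0.97), CHDH (0.96) and FBLN7 (0.95), and for F10 they were SUN1 (0.93), RCCD1 (0.92) and TMEM74B (0.90). SEMA4D (0.98), GLO1 (0.97) and CCDC117 (0.97) were most like FGG. WNT3 (0.88), NCAN (0.87) and UTP14C (0.83) were most like FGA, and SOX13, CLPX and SNHG6 (0.89, 0.88 and 0.88) most like FGB. SERPINC1 was followed by GPX3 (0.99), AMDHD1 (0.99) and ALDH3A2 (0.98), F5 by HSD17B7 (0.99), ARHGAP28 (0.97) and PTPN14 (0.97), and F7 by PICK1 (0.97), MICAL2 (0.93) and ELMO2 (0.90).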

How the data were processed

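Total RNA of 6 NT siRNA and 6 GATA4 siRNA samples was, per the labels' protocols, hybridised to Illumina HumanHT-12 beadchips of version 4. The deposited scanner table holds a linear signal intensity per probe and a detection p-value next to it, per the file headers. The lowest intensity is 82.2, and the submitters' processing notes name GenomeStudio. The authors' deposited normalised table holds log2 values, within 0.0141 of a quantile normalisation of the log2 signals, and served as an alternative.

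Signals were background-corrected from the detection p-values with an offset of 16, quantile normalised and log2-transformed by the neqc function (limma 3.58.1, R 4.3.3). Probe names came from the platform's annotation table, updated to current RefSeq symbols by gene ID. Tested probes had a detection p under 0.01 on 6 or more of the 12 arrays, and a gene with several tested probes was represented by the one of highest mean signal. Comparisons used limma's lmFit and eBayes (trend = TRUE), two-sided, and p-values were adjusted by Benjamini-Hochberg over 10196 genes, or over 16339 probes for single probes. Replicate numbers were taken to pair the arrays: deviations from the group means correlated between arrays of 1 number (r 0.548 to 0.604), although not once each set's means were also taken out (-0.0604 to 0.0119). The members, lists and tests were chosen with earlier results of these data known. By rule the text names all members, GATA4, up to 3 called genes each way or the gene with the lowest p of each list, and the 3 genes most like each member. Genes of the lists with no named probe were not analysed here. Alternatives changed the background correction, normalisation, filter, probe rule, variance model, array weights and block, and left out each array in turn.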

Additional observations from a re-analysis of the deposited data

Results flagged for a closer look

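The siRNA change of SERPINC1 in replicates 4 to 6 minus that in replicates 1 to 3 was -0.356 on the log2 scale. It stands out because all 3 pairs of replicates 1 to 3 were higher after GATA4 siRNA (0.146, 0.187 and 0.285) and all 3 pairs of replicates 4 to 6 lower (-0.178, -0.180 and -0.0921). On raw signal replicate 6 was not lower (559.7 after NT siRNA and 638.7 after GATA4 siRNA). limma gave the difference an unadjusted p of 0.00536 and an adjusted p of 0.443 over all genes. No array stood far from the rest of its siRNA group in the 20 groups of 6 arrays looked at, where chance would give about 1. Each group held both replicate sets, which lay apart for some members. The check could therefore miss an array that stood out within its set.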

How the results depend on the processing

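The comparison of siRNAs called 3 of 9 members. It called 0 without the replicate block and 0 without a mean-variance trend. In 3 other fits it called 1, which was F2 each time. These were replicates 1 to 3 alone, equal medians in place of quantile normalisation, and no filter on dim probes. Over all genes the main fit called 270 higher and 384 lower. These counts were 20 and 52 without the replicate block and 36 and 85 in replicates 1 to 3 alone. They were 131 and 231 with equal medians and 153 and 245 with no filter on dim probes. Leaving out 1 array gave 1 to 4 called members, with 1 when either array of replicate 6 was left out. For these fits and the fit without a mean-variance trend no count over all genes is given here. Their member counts therefore stand without a background. The causes were not tested. Removing either array of a pair also removes the other from a fit with the replicate block. The count between sets stayed at 5 to 8, and the test of the difference between sets called 0 members wherever it was run. The count between sets was 5 among GATA4 siRNA arrays alone, where 1714 genes were called higher and 1990 lower. In the main fit those were 2637 and 2570. Values near 0 changed sign. After GATA4 siRNA, FGA was 0.0279 and F2R 0.00689 in replicates 1 to 3 alone, and F5 -0.0495, FGB -0.0372 and SERPINC1 -0.15 in replicates 4 to 6 alone. SERPINC1 ranged from -0.0235 to 0.0695 over the fits that left out an array (-0.00392 without replicate 2), F7 from -0.00115 to 0.0549 and F2R from -0.0559 to 0.00389. The set difference of FGA was 0.10 among NT siRNA arrays, 0.0439 with equal medians, 0.00602 as a mean of probes and -0.0454 to 0.0216 over fits that left out an array. The p-values rest on 6 arrays a group whose independence the labels do not state, and dim probes such as those of PLG and GATA4 sit at the detection level.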
